A study of Homo sapiens with 18 samples.

Results

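The genes described here are the Kelch BTB adaptors of the CUL3 ubiquitin ligase, taken as every gene whose array symbol was KLHL or KBTBD followed by a number. KBTBD8 was left out of the set because it was the target of the shRNA. The rule found 44 genes among the 18417 genes that had a probe set with exactly 1 symbol, and each of the 44 was read by a single probe set. KLHL23 was not counted, because its probe set also carried another symbol. RNA of H1, an established human embryonic stem cell line, was hybridised to 18 Affymetrix Human Gene 1.0 ST arrays in 6 groups of 3. The groups were embryoid bodies grown for 6 days and pluripotent cells, each either transduced with a lentivirus carrying an shRNA against KBTBD8, transduced with a lentivirus carrying a control shRNA, or left without virus. Embryoid bodies were aggregated in AggreWell plates with APEL medium, and pluripotent cells grew on Matrigel with mTeSR1 and no feeder cells. All groups came from this 1 line, and the sources used here do not say how many shRNAs against KBTBD8 were used. Levels are given as log2 intensity after the authors' GCRMA step, so a difference of 1 is a doubling.

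A Kelch BTB protein joins CUL3 through its BTB domain and holds a substrate with its Kelch repeats. CUL3 in turn binds RBX1, which brings the ubiquitin-loaded enzyme, and the complex is switched on by attachment of NEDD8 and reset by the COP9 signalosome and CAND1. Which proteins are marked depends on the adaptor, so the family covers mitosis, vesicle coats, ion transport, actin, muscle and many targets not yet known. KBTBD8, the target of the shRNA, has been linked to the specification of neural crest through the nucleolar proteins TCOF1 and NOLC1.

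The arrays were checked before the members were read. The median of all probe sets lay between 5.97 and 6.12 on the 12 transduced arrays and between 5.85 and 5.95 on the 6 arrays without virus. Replicate 2 of the KBTBD8 shRNA stood apart in both states. The array labelled embryoid body correlated at 0.9949 with the pluripotent group of the same shRNA and at 0.9558 with its own, and the array labelled pluripotent correlated at 0.9926 with the embryoid body group and at 0.9516 with its own. Each of the remaining 16 correlated best with its own group. Of the 10 pluripotent markers, the mean was 10.2 on the replicate labelled embryoid body and 8.92 on the one labelled pluripotent, and the neural plate mean was 5.50 and 7.98 in that order. All values below come from the 16 other arrays unless stated, which leaves 2 arrays in each KBTBD8 shRNA group. Values from the same fit with all 18 arrays are given for the calls that rest on these groups. They are also given for the control shRNA against no virus, where neither added array belongs to a compared group. There the added arrays leave each difference unchanged. They alter only the estimate of spread, which all groups share, and the adjustment over genes. On the 16 arrays KBTBD8 itself read 4.86 and 4.66 in embryoid bodies with its shRNA, against 4.43, 4.79 and 5.04 with the control shRNA. In pluripotent cells it read 5.13 and 4.96 with its shRNA, against 6.39, 7.09 and 7.03 with the control shRNA. The groups did not overlap in pluripotent cells, where KBTBD8 was at least 2.65-fold lower with its shRNA (adjusted p 0.000282, limma; 0.00086 with all 18 arrays). This is a bound, because its shRNA arrays lay below the 40th percentile of all probe sets on each array, and it is counted from that percentile. In embryoid bodies both groups lay below it on every array, so the readings there do not check the knockdown (adjusted p 0.998, and 0.88 with all 18 arrays). After ± stands the standard error of a log2 difference throughout, or the SD of a group mean where the text says so.

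Not every member could be read. The tests took genes with readings over the 40th percentile of the array on 3 or more of the 16 arrays, and 32 of the 44 members met this. The 12 that did not were KLHL1, KLHL6, KLHL10, KLHL14, KLHL29, KLHL30, KLHL31, KLHL32, KLHL38, KLHL41, KBTBD3 and KBTBD12, with readings between 3.19 and 5.52. Several of these are known from tissues other than the early embryo, such as KLHL10 in maturing sperm, KLHL6 in B cells, KLHL1 in the cerebellum and KLHL41 in muscle. KBTBD3 lay above that percentile on 2 arrays and the other 11 on none. Of the 32 tested, 27 lay above it on all 16 arrays, and the other members were KLHL4 on 8 arrays, KLHL40 on 7, KBTBD13 on 13, KLHL21 on 14 and KLHL34 on 15. Of the 9 members placed in a muscle group, 4 were tested, KBTBD13, KLHL33, KLHL34 and KLHL40. Of the 7 skeletal muscle markers 3 or 4 lay below the 40th percentile on every array, while MYOG, TNNT3 and ACTA1 had group means of 5.93 to 8.88. Reading depth has no meaning on an array, and the number of arrays limits the precision. The 95% interval of a member's difference reached a median of 0.23 log2 to each side in the comparisons of 3 with 3 arrays and 0.26 in those of 2 with 3.

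Differentiation was read in 3 comparisons of embryoid bodies with pluripotent cells that share no arrays, 1 for each treatment. The same 7 members passed the threshold in all 3, 5 higher and 2 lower in embryoid bodies. The 5 that rose were KLHL24, KLHL28, KLHL15, KLHL9 and KLHL11, and the 2 that fell were KLHL4 and KLHL7. KLHL4 met the filter on low values through its pluripotent arrays only, the state where it was higher. Among all 14142 genes tested, 10.2% were higher in all 3 comparisons and 12.2% were lower in all 3, so the 7 of 32 members were near the share of all genes. Passing means an adjusted p under 0.05 by limma after Benjamini and Hochberg over all genes tested. RNA came from whole cultures, so fewer cells of a type and less RNA per cell cannot be told apart.

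KLHL24, a stabilising mutation of which causes a skin fragility disorder with loss of keratin 14, rose most. It read 8.75 and 8.78 in embryoid bodies with the KBTBD8 shRNA, against 6.92 and 7.17 in pluripotent cells. With the control shRNA it read 9.04, 8.83 and 8.92 in embryoid bodies, against 7.02, 7.34 and 7.18 in pluripotent cells. Without virus it read 8.70, 8.58 and 8.68 in embryoid bodies, against 7.64, 7.36 and 7.45 in pluripotent cells. Every embryoid body array lay above every pluripotent array, and the differences were 1.72 ± 0.12, 1.75 ± 0.10 and 1.17 ± 0.10 (adjusted p 2.16e-08, 8.97e-10 and 7.8e-08). As a ratio the rise was 3.29-fold with the KBTBD8 shRNA, 3.37-fold with the control shRNA and 2.25-fold without virus.

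KLHL28, an adaptor with few known targets, read 8.45 and 8.5 in embryoid bodies with the KBTBD8 shRNA, against 7.49 and 7.69 in pluripotent cells. Under the control shRNA its readings were 8.61, 8.55 and 8.48 in embryoid bodies, against 7.61, 7.37 and 7.33 in pluripotent cells, and without virus 8.39, 8.67 and 8.52, against 7.58, 7.56 and 7.5. Its embryoid body readings stayed within a narrow band across the treatments. It rose by 0.88 ± 0.12 with the KBTBD8 shRNA, 1.11 ± 0.09 with the control shRNA and 0.98 ± 0.09 without virus (adjusted p 1.6e-05, 8.15e-08 and 2.8e-07).

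KLHL15 directs CUL3 to a regulatory subunit of the phosphatase PP2A and to the DNA repair factor CtIP. It read 7.65 and 7.45 in embryoid bodies with the KBTBD8 shRNA, against 6.73 and 6.92 in pluripotent cells. The control shRNA arrays gave 7.37, 7.47 and 7.36 in embryoid bodies, against 6.60, 6.98 and 6.75 in pluripotent cells, and those without virus gave 7.02, 7.26 and 7.12, against 6.77, 6.62 and 6.55. The lowest embryoid body array lay just above the highest pluripotent array. The differences were 0.72 ± 0.13, 0.62 ± 0.10 and 0.49 ± 0.10 (adjusted p 0.000324, 0.000121 and 0.00094), in the same order of treatments.

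KLHL9, which with KLHL13 moves Aurora B in mitosis, read 7.67 and 7.77 in embryoid bodies with the KBTBD8 shRNA, against 7.24 and 7.33 in pluripotent cells. Its control shRNA readings were 7.85, 7.88 and 7.90 in embryoid bodies, against 7.11, 7.44 and 7.41 in pluripotent cells, and those without virus were 8.08, 8.14 and 8.04, against 7.60, 7.49 and 7.19. Embryoid bodies without virus read highest. The differences were 0.43 ± 0.13, 0.56 ± 0.10 and 0.66 ± 0.10 (adjusted p 0.0134, 0.000325 and 6.09e-05), and the first was lost without replicate 1 of the pluripotent arrays with the KBTBD8 shRNA and without replicate 3 of their embryoid bodies (adjusted p 0.0793 to 0.0799).

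KLHL11, known from an autoantibody found in brainstem encephalitis, read 7.17 and 7.22 in embryoid bodies with the KBTBD8 shRNA, against 6.59 and 6.97 in pluripotent cells. On the control shRNA arrays it read 7.35, 7.37 and 7.21 in embryoid bodies, against 6.74, 6.73 and 6.98 in pluripotent cells, and without virus 7.37, 7.10 and 7.10, against 6.70, 6.65 and 6.72. It rose by 0.41 ± 0.13, 0.50 ± 0.11 and 0.50 ± 0.11 (adjusted p 0.0195, 0.000999 and 0.000861), and the call with the KBTBD8 shRNA was lost without any 1 of 3 of its 4 arrays (adjusted p 0.058 to 0.255). For these 4 genes too, no embryoid body array overlapped with a pluripotent array, and the share of all genes without overlap was not counted.

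KLHL4, an X-linked member whose targets are not well described, fell in all 3 treatments. It read 4.24 and 3.51 in embryoid bodies with the KBTBD8 shRNA, against 6.48 and 6.80 in pluripotent cells. With the control shRNA the readings were 5.03, 4.94 and 4.81 in embryoid bodies, against 6.77, 6.98 and 7.0 in pluripotent cells. Without virus they were 4.05, 3.55 and 3.67 in embryoid bodies, against 6.90, 6.30 and 6.29 in pluripotent cells. The level in embryoid bodies lay below the 40th percentile on all 8 arrays, so the fall can be given only as a bound, counted from that percentile. It was at least 2.24-fold with the KBTBD8 shRNA, 2.70-fold with the control shRNA and 2.30-fold without virus (adjusted p 1.27e-07, 3.05e-07 and 5.57e-09). The gene was tested only because its pluripotent arrays met the filter, so being tested already rested on the state where it was higher. KLHL7, mutated in a dominant form of retinitis pigmentosa, read 8.01 and 8.10 in embryoid bodies with the KBTBD8 shRNA, against 8.48 and 8.51 in pluripotent cells. Its control shRNA readings were 7.92, 7.89 and 7.96 in embryoid bodies, against 8.62, 8.81 and 8.64 in pluripotent cells, and those without virus were 8.39, 8.41 and 8.35, against 8.94, 8.78 and 8.79. The embryoid body arrays lay below the pluripotent arrays throughout, and the differences were -0.44 ± 0.09, -0.77 ± 0.08 and -0.45 ± 0.08 (adjusted p 0.00148, 4.9e-07 and 0.000107).

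**Figure D1:**
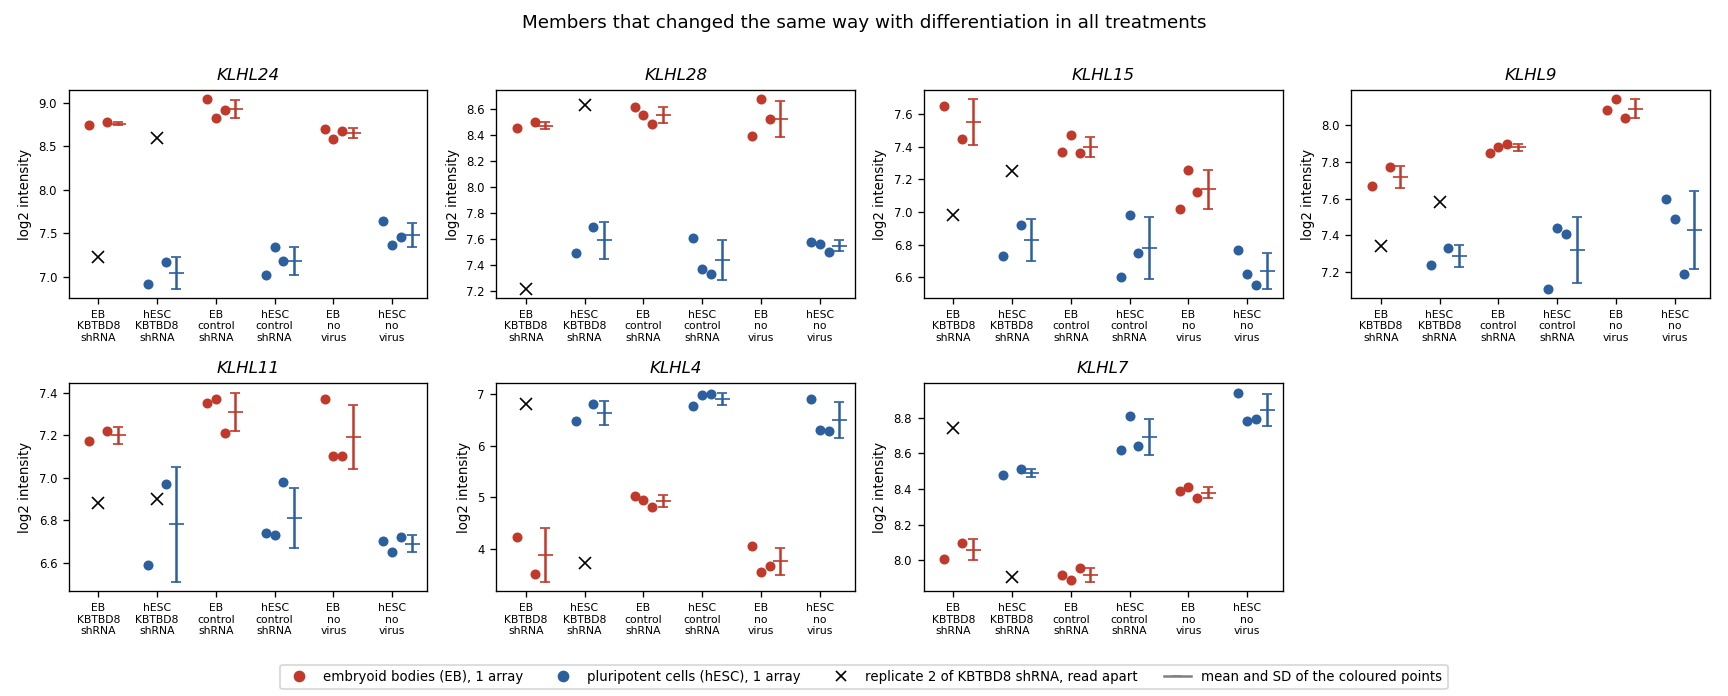
Log2 intensity of the 7 members that passed the threshold in all 3 differentiation comparisons, by group, with 1 point per array and the mean and SD of the coloured points. Crosses are replicate 2 of the KBTBD8 shRNA groups, which were left out of the means. KLHL24, KLHL28, KLHL15, KLHL9 and KLHL11 lie higher on the embryoid body arrays and KLHL4 and KLHL7 lie lower.

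The arrays set apart carried these members in the order of the opposite state. KLHL24 read 7.23 on the replicate labelled embryoid body, against 8.60 on the one labelled pluripotent. KLHL28 read 7.22 against 8.63 in the same order, KLHL4 read 6.81 against 3.72, and KLHL7 read 8.74 against 7.91. The gaps were smaller for KLHL15 (6.98 against 7.25) and KLHL9 (7.34 against 7.58). KLHL11 barely differed, at 6.88 against 6.9, both within its pluripotent readings of 6.59 and 6.97 with the KBTBD8 shRNA. With all 18 arrays and the labels as given, no member passed the threshold in the KBTBD8 shRNA comparison (0 of 32 by limma, 3 of 32 at an unadjusted p under 0.05), nor did any gene on the array (0% of 14210), and the KLHL24 difference became 0.69 (adjusted p 0.794).

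Promoters are shown for 4 of the members that moved alike in all 3 treatments, the 2 with the largest rises and the 2 that fell. The sequences are those of RefSeq on GRCh38.p14, 300 bases across the start of each gene, written 5′ to 3′ on the strand of the gene, with capitals at the letters that match a GC box (GGGCGG) or a CCAAT box (CCAAT) on either strand. KLHL24 and KLHL28 are the genes that rose, and KLHL7 and KLHL4 those that fell.
KLHL24, chr3:183635373-183635672, plus strand: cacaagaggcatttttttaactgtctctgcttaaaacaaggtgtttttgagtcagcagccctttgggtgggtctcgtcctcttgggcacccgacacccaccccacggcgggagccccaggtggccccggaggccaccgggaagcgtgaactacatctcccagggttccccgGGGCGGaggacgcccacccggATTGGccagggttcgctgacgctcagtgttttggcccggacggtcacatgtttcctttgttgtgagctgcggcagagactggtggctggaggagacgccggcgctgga
KLHL28, chr14:44961436-44961735, minus strand: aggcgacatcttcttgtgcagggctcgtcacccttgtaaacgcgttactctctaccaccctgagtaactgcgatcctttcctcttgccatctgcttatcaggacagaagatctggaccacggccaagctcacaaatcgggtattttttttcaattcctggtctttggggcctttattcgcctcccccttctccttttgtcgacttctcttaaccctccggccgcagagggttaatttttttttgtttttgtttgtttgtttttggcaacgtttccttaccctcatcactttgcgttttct
KLHL7, chr7:23105535-23105834, plus strand: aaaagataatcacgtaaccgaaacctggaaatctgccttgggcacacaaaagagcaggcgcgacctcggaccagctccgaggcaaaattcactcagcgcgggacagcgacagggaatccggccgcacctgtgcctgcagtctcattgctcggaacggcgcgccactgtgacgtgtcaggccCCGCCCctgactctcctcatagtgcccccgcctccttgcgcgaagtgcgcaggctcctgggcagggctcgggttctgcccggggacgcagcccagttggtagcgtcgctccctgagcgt
KLHL4, chrX:87517552-87517851, plus strand: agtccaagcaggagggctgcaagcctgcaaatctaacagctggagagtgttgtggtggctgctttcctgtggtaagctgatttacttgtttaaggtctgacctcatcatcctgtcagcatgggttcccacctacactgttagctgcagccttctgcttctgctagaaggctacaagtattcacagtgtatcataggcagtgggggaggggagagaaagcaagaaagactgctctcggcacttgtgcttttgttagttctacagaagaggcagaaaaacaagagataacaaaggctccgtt
KLHL24 holds 1 GC box and 1 CCAAT box, KLHL7 holds 1 GC box, and neither motif was found in these windows of KLHL28 and KLHL4. CpG pairs number 19 in KLHL24, 13 in KLHL28, 27 in KLHL7 and 2 in KLHL4. Of the 44 members 37 had a promoter in the table, with a median of 24 CpG pairs, against 14 over all 35116 promoters. Members were read at 1 promoter per gene. The 35116 were not limited to genes on the array or matched to the members, so the 2 sets are unlike. A GC box was present in 21 of the 37, or 56.8%, against 45.0% of all promoters, and a CCAAT box in 10, or 27.0%, against 34.6%. The ETS motif CCGGAAG was found in 5 of the 37, or 13.5%, among them KLHL9, KLHL20, KLHL2 and KBTBD4, against 10.3% of all promoters. The octamer ATGCAAAT was found in none of the 37 and in 1.77% of all promoters. These are matches of letters in a window and were not tested against the expression values.

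Without virus 15 of the 32 tested members rose and 5 fell in embryoid bodies, which is 62.5% of them. Of all genes tested 52.3% passed (26% higher and 26.3% lower), against 48.4% with the control shRNA and 38.5% with the KBTBD8 shRNA. The groups with the KBTBD8 shRNA held fewer arrays. The members and all genes alike thus moved most in numbers without virus, so this order is not particular to the family. The median difference of the members was 0.19, against -0.04 over all genes. Besides the 7, KLHL8 rose by 1.16 ± 0.11 (adjusted p 2.32e-07), KLHL20 by 0.84 ± 0.11 (1.14e-05), KBTBD6 by 0.66 ± 0.15 (0.00146) and KLHL3 by 0.62 ± 0.11 (0.000187). KLHL20 marks the death-associated kinase DAPK1 and the PML protein, and KLHL3 marks the WNK kinases that set salt handling in the kidney. KLHL22, which acts on PLK1 at the metaphase plate, rose by 0.61 ± 0.11 (0.000234), and KLHL5 rose by 0.58 ± 0.11 (0.000307).

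Of the 5 tested genes named KBTBD outside the muscle group, 4 were higher in this comparison and none lower, against 26% and 26.3% of all genes. KBTBD13, placed in the muscle group, was also tested and was not past the threshold. KBTBD6 and KBTBD7 work together on the RAC1 activator TIAM1, KBTBD4 on the CoREST complex and KBTBD2 on the p85α subunit of PI3-kinase. KBTBD4 rose by 0.57 ± 0.10 (adjusted p 0.000121), KBTBD2 by 0.50 ± 0.09 (0.000265) and KBTBD7 by 0.38 ± 0.14 (0.0301), and KBTBD11 was not past the threshold. The KBTBD7 call was lost without replicate 1 or 3 of the embryoid bodies and without replicate 2 or 3 of the pluripotent cells (adjusted p 0.0586 to 0.129). KLHL42, which acts on the katanin subunit KATNA1, rose by 0.29 ± 0.08 (0.00711). The members that fell, beside KLHL4 and KLHL7, were KLHL36 by 0.62 ± 0.14 (0.00154), KLHL34 by 0.34 ± 0.13 (0.0369) and KLHL17 by 0.25 ± 0.10 (0.0391). KLHL17, named actinfilin in rat, brings the kainate receptor subunit GRIK2 to CUL3. KLHL17 lost its call without replicate 1 or 3 of the embryoid bodies or replicate 3 of the pluripotent cells (adjusted p 0.0907 to 0.184), and KLHL34 without any 1 of these arrays except replicate 1 of the pluripotent cells (0.0605 to 0.124).

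With the control shRNA 8 members rose and 5 fell, 40.6% of the 32 against 48.4% of all genes (23.2% higher and 25.3% lower), and the median was -0.01, against -0.02 over all genes. Beyond the 7, the members higher in embryoid bodies were KBTBD6 at 0.39 ± 0.15 (adjusted p 0.0397), KLHL5 at 0.29 ± 0.11 (0.0364) and KLHL12 at 0.25 ± 0.08 (0.0112). KLHL12 marks the SEC31 coat protein of vesicles leaving the endoplasmic reticulum. The members lower were KLHL2 at -0.52 ± 0.10 (0.000306), KLHL25 at -0.38 ± 0.11 (0.0117) and KLHL34 at -0.35 ± 0.13 (0.0363). KLHL2, like KLHL3, marks WNK kinases, and KLHL25 marks the translation repressor EIF4EBP1 and ATP-citrate lyase. The count was 8 without replicate 1 of the pluripotent cells with the control shRNA, where KBTBD6, KLHL5, KLHL12, KLHL25 and KLHL34 were lost. KLHL12 was lost without that array only (adjusted p 0.0517), KLHL25 also without replicate 1 of the embryoid bodies (up to 0.0579), and KBTBD6 without any 1 of the 6 arrays (0.0597 to 0.109). KLHL5 was also lost without replicate 3 of the pluripotent cells or replicate 1 or 3 of the embryoid bodies (0.0738 to 0.189), and KLHL34 without any 1 of the embryoid body arrays (0.0636 to 0.195).

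With the KBTBD8 shRNA 9 members rose and 3 fell, 37.5% of the 32 against 38.5% of all genes (17.4% higher and 21.1% lower), with a median of 0.16, against 0.00 over all genes. Beyond the 7, KLHL13 rose by 0.68 ± 0.16 (adjusted p 0.00311), KLHL8 by 0.66 ± 0.13 (0.00101), KLHL22 by 0.54 ± 0.14 (0.00459) and KBTBD4 by 0.46 ± 0.12 (0.00592). KLHL2 fell by 0.77 ± 0.12 (9.2e-05). Without replicate 1 of the pluripotent arrays the KLHL13 difference was 0.40 and lost its call (adjusted p 0.0706), and without replicate 3 the KLHL22 difference was 0.30 (adjusted p 0.11). The KBTBD4 call was lost without replicate 1 of either state (adjusted p 0.0501 to 0.0602). None of these passed with all 18 arrays.

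Across the 3 comparisons no member passed in opposite directions, against 3.13% of all genes. The 8 members past the threshold in none of the 3 were KLHL18, KLHL21, KLHL26, KLHL33, KLHL35, KLHL40, KBTBD11 and KBTBD13, which is 25% of the 32, against 29.8% of all genes. The group linked to mitosis had 5 tested genes, of which 3 were higher with the KBTBD8 shRNA (KLHL9, KLHL13 and KLHL22), 1 with the control shRNA (KLHL9) and 2 without virus (KLHL9 and KLHL22), and none was lower. The same shares over all genes were 17.4%, 23.2% and 26% higher, and the difference between treatments was not tested for the group. In the muscle group of 4 tested genes none rose in any of the 3, and KLHL34 fell with the control shRNA and without virus.

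**Figure D2:**
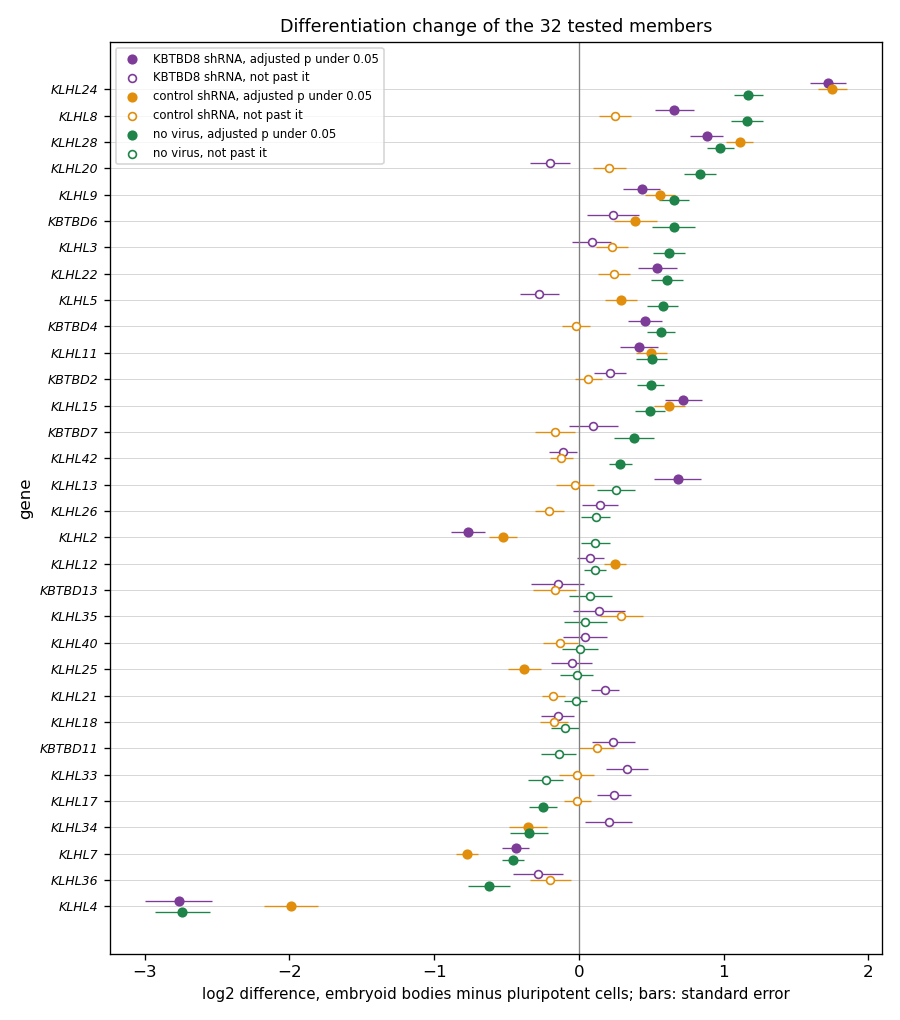
Log2 difference of embryoid bodies minus pluripotent cells for the 32 tested members, with 1 point per treatment and bars of 1 standard error. Filled points passed an adjusted p under 0.05. KLHL24 stands highest with the KBTBD8 shRNA and the control shRNA. KLHL4 is drawn at its measured differences, which rest on embryoid body readings below the 40th percentile.

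The culture moved in its cell types along with these differences. The mean of the 10 pluripotent markers was 9.0 to 9.11 in embryoid bodies with the KBTBD8 shRNA, 8.64 to 8.66 with the control shRNA and 7.71 to 7.85 without virus, against 10.02 to 10.46 on the pluripotent arrays. The neural plate markers, PAX6 among them, averaged 8.01 to 8.18, 7.59 to 7.64 and 8.60 to 8.63 in the same embryoid bodies, against 5.50 to 5.81 on the pluripotent arrays. On the embryoid body arrays 1 or 2 of the 10 pluripotent markers and none of the 9 neural plate markers lay below the 40th percentile. The part of these cell types in the members' differences was not tested.

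The rest of the CUL3 ligase moved in both directions. CUL3 read 10.31, 10.34 and 10.36 in embryoid bodies without virus, against 9.96, 10.02 and 9.92 in pluripotent cells, a rise of 0.37 ± 0.08 (adjusted p 0.000654), and it was not past the threshold with the control shRNA (0.12 ± 0.08, 0.223) or the KBTBD8 shRNA (-0.08 ± 0.09, 0.52). Of 21 genes of the CUL3 core, its NEDD8 cycle and the COP9 signalosome, 1 rose and 5 fell with the KBTBD8 shRNA, 3 rose and 6 fell with the control shRNA, and 6 rose and 5 fell without virus. These are 28.6%, 42.9% and 52.4% of the 21, against 38.5%, 48.4% and 52.3% of all genes. Without virus the largest rises were in the signalosome subunit COPS2 (0.46), the NEDD8 ligase DCUN1D4 (0.39) and CUL3, and the largest falls were in DCUN1D5 (-0.71), DCUN1D2 (-0.46) and the signalosome subunit GPS1 (-0.31). Of 7 further cullins 3 rose and none fell without virus, CUL7 by 0.93, CUL9 by 0.57 and CUL4B by 0.27, against 26% of all genes higher and 26.3% lower.

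Among 26 tested BTB adaptors outside the set, 7 rose and 5 fell with the KBTBD8 shRNA, 10 rose and 2 fell with the control shRNA, and 11 rose and 4 fell without virus, or 46.2%, 46.2% and 57.7% against the same shares of all genes. The largest rises without virus were in ENC1, a neuronal Kelch protein, by 2.03 log2, in IPP by 1.15 and in TNFAIP1 by 0.73. The largest falls were in RHOBTB3 by 1.83 and in ABTB2, which lay below the 40th percentile in embryoid bodies and was at least 1.97-fold lower, followed by IVNS1ABP by 0.26. Among 28 tested substrates and partners, 5 rose and 6 fell with the KBTBD8 shRNA, 10 rose and 8 fell with the control shRNA, and 7 rose and 9 fell without virus, or 39.3%, 64.3% and 57.1%. Without virus the largest rises were in TIAM1 by 1.64, PIK3R1 by 1.54 and GABARAP by 0.58, and the largest falls in EIF4EBP1 by 1.47, DAPK1 by 1.15 and ACLY by 0.85. All 4 lists were written with earlier results of these data known, and none of their 33 calls with the KBTBD8 shRNA held on all 18 arrays.

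The control shRNA was then compared with no virus, separately in each state. In embryoid bodies 6 members were higher and 6 lower, 37.5% of the 32 against 44.9% of all genes (24.5% higher and 20.3% lower), with a median of -0.08, against 0.03 over all genes. KLHL4 counts among the 6 higher, reading 5.03, 4.94 and 4.81 with the control shRNA, against 4.05, 3.55 and 3.67 without virus (adjusted p 0.000145). Both groups lay below the 40th percentile on every array, and KLHL4 was tested through its pluripotent arrays, so no size is given for it. KLHL8 fell most, reading 7.46, 7.28 and 7.34 with the control shRNA, against 8.10, 7.85 and 8.15 without virus. The difference was -0.67 ± 0.11 (adjusted p 0.000163). Its groups did not overlap, and the share of all genes without overlap was not counted. The other members that rose were KLHL33 by 0.61 ± 0.12 (0.000653), KLHL17 by 0.44 ± 0.10 (0.00161), KBTBD13 by 0.43 ± 0.15 (0.0292), KLHL21 by 0.38 ± 0.08 (0.00119) and KLHL24 by 0.28 ± 0.10 (0.0345). KLHL21 recruits CUL3 to the midzone for cell division. KBTBD13 and KLHL40 are mutated in nemaline myopathy.

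The other members that fell in embryoid bodies with the control shRNA were KLHL26 by 0.64 ± 0.10 (adjusted p 0.000109), KLHL2 by 0.59 ± 0.10 (0.000173), KLHL22 by 0.53 ± 0.11 (0.00124), KLHL7 by 0.46 ± 0.08 (0.000174) and KBTBD4 by 0.42 ± 0.10 (0.00237). The KBTBD13 call was lost without any 1 of 5 arrays (replicates 1 and 2 without virus and all 3 with the control shRNA, adjusted p 0.0508 to 0.107), and the KLHL24 call without any 1 of 5 (all 3 without virus, and replicates 1 and 3 with the control shRNA, 0.0517 to 0.126). With quantile normalization between arrays the KBTBD13 difference was 0.24 and KLHL21 0.19 and neither passed, and the split became 5 higher and 8 lower. Over all 18 arrays 7 members passed (KLHL8, KLHL17, KLHL21, KLHL22, KLHL26, KLHL33 and KBTBD4), against 27.1% of all genes, and KLHL4 had an adjusted p of 0.254. The differences are the same in both fits, because neither added array belongs to these groups, while the shared estimate of spread changed.

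In pluripotent cells the control shRNA went with 7 higher and 2 lower members, 28.1% of the 32 against 29.1% of all genes (16.9% higher and 12.1% lower), with a median of 0.11, against 0.04 over all genes. KBTBD13 rose most, reading 6.00, 6.06 and 5.63 with the control shRNA, against 5.06, 5.40 and 5.20 without virus, a difference of 0.68 ± 0.15 (adjusted p 0.00376). Without virus it lay above the 40th percentile on 1 of 3 arrays (percentiles 36.7 to 40.2), so this size is taken from readings near background. KLHL26 fell most, reading 6.75, 6.59 and 6.46 with the control shRNA, against 6.88, 7.07 and 6.81 without virus, a difference of -0.32 ± 0.10 (adjusted p 0.025). The readings of KBTBD13 and KLHL26 did not overlap either, and the share of all genes without overlap was not counted. The other rises were in KLHL21 by 0.53 ± 0.08 (0.000263), KLHL20 by 0.42 ± 0.11 (0.0124), KLHL33 by 0.40 ± 0.12 (0.0196), KLHL3 by 0.33 ± 0.11 (0.0353), KLHL42 by 0.30 ± 0.08 (0.011) and KLHL18 by 0.27 ± 0.09 (0.0396), and KLHL24 fell by 0.30 ± 0.10 (0.0333). KLHL18 acts on Aurora A. Without replicate 3 of the control shRNA the count was 4, with KLHL3, KLHL18, KLHL20, KLHL24 and KLHL26 lost, and without replicate 3 of the cells without virus it was 5, with KLHL3, KLHL20, KLHL24 and KLHL33 lost. The KLHL42 call was lost without replicate 2 of the control shRNA (adjusted p 0.0566), and no call was lost for KBTBD13 or KLHL21 without any 1 array. On all 18 arrays those 2 were the only members past the threshold, against 12.1% of all genes, again with unchanged differences and another shared estimate of spread. With quantile normalization the split was 5 higher and 2 lower.

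CUL3 itself was lower with the control shRNA in both states. It read 9.85, 9.68 and 9.77 in control shRNA embryoid bodies, against 10.31, 10.34 and 10.36 without virus, a difference of -0.56 ± 0.08 (adjusted p 2.25e-05). In pluripotent cells it read 9.60, 9.71 and 9.66, against 9.96, 10.02 and 9.92 without virus, a difference of -0.32 ± 0.08 (0.00589). Of the 21 genes of its machinery 2 rose and 7 fell in embryoid bodies and 2 rose and 4 fell in pluripotent cells, which is 42.9% and 28.6% against 44.9% and 29.1% of all genes. RBX1, the RING partner of CUL3, was lower by 0.39 in embryoid bodies and by 0.40 in pluripotent cells (adjusted p 0.00344 and 0.00519).

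The arrays of the transduced cells also had higher medians over all probe sets, as given above. Among cell type markers, the 8 neural crest genes averaged 9.03 to 9.14 in control shRNA embryoid bodies, against 5.89 to 6.02 without virus. None of those 8 markers lay below the 40th percentile with the control shRNA, against 3 without virus, and SOX10 averaged 8.25 with the control shRNA and 6.02 without virus. The 7 endoderm markers averaged 6.79 to 6.87 with the control shRNA, against 5.05 to 5.11 without virus. Of these, AFP, TTR, APOA2 and APOA1 had group means of 7.13 to 8.2, against 3.62 to 5.73. SOX17, FOXA2 and GATA4 moved less, with 5.63 to 5.85 against 5.32 to 5.52. The 6 surface ectoderm markers averaged 9.43 to 9.49, against 7.56 to 8.06. Those 6 markers averaged 9.71 or more in every pluripotent group, so they do not tell surface ectoderm from undifferentiated cells. In pluripotent cells the endoderm mean was 6.10 to 6.26 with the control shRNA, against 5.21 to 5.31 without virus, with none and 3 or 4 of its 7 genes below the 40th percentile. AFP, TTR, APOA2 and APOA1 had group means of 5.87 to 6.93 there, against 4.18 to 6.06. For SOX17, FOXA2 and GATA4 they were 5.63 to 5.87, against 5.32 to 5.61. The neural crest mean there was 6.01 to 6.14, against 5.83 to 5.88. The parts of the array medians and of these cell types in the members' differences were not tested, and the virus cannot be told apart from anything else that differed between the transduced and untransduced cells.

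**Figure D3:**
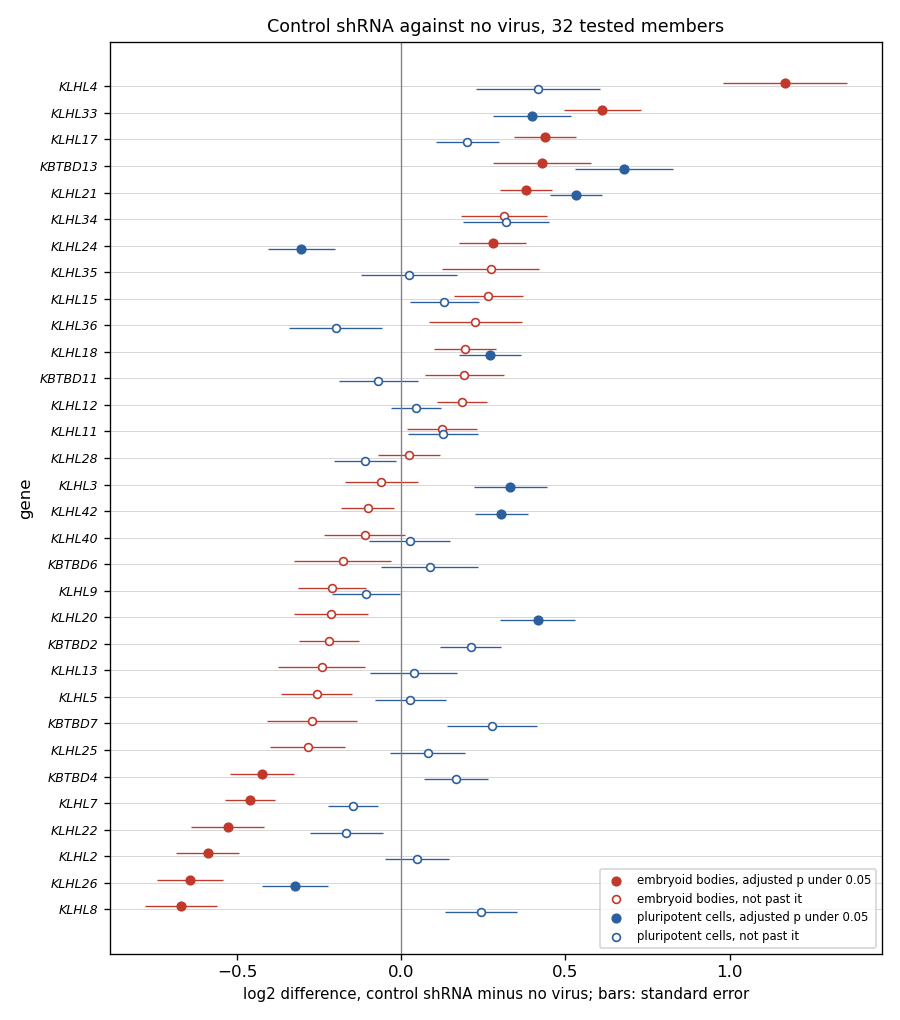
Log2 difference of the control shRNA minus no virus for the 32 tested members, in embryoid bodies and in pluripotent cells, with bars of 1 standard error. Filled points passed an adjusted p under 0.05. KLHL8 is lowest in embryoid bodies, and KLHL4 stands highest there on readings below the 40th percentile in both groups, while in pluripotent cells KBTBD13 is highest.

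Whether the virus difference depended on the state was tested, which is also the test of whether differentiation differed between the control shRNA and no virus. Of the 32 members 1 was higher and 6 lower in this test, 21.9% against 16.9% of all genes (8.24% higher and 8.66% lower). KLHL8 differed most, by -0.91 ± 0.16 (adjusted p 0.000621). Its difference with the control shRNA was 0.25 ± 0.11 (adjusted p 0.0726), on readings of 7.46, 7.28 and 7.34 in embryoid bodies, against 6.98, 7.27 and 7.09 in pluripotent cells, while without virus it rose by 1.16. KLHL2 differed by -0.64 ± 0.14 (0.00419). It read 6.39, 6.38 and 6.17 in control shRNA embryoid bodies, against 6.74, 6.76 and 7.0 in pluripotent cells, while without virus it read 6.82, 6.82 and 7.06, against 6.86, 6.70 and 6.80. KLHL20 differed by -0.63 ± 0.16 (0.0122), reading 7.60, 7.73 and 7.56 in control shRNA embryoid bodies, against 7.33, 7.37 and 7.56 in pluripotent cells, and 7.98, 7.77 and 7.78 without virus, against 7.23, 6.97 and 6.81.

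KBTBD4 differed by -0.59 ± 0.14 (adjusted p 0.0069), with 7.01, 7.19 and 7.13 in control shRNA embryoid bodies, against 6.99, 7.17 and 7.23 in pluripotent cells, and 7.56, 7.63 and 7.41 without virus, against 7.02, 6.79 and 7.07. The KBTBD4 readings overlapped between states only with the control shRNA. KBTBD2 differed by -0.43 ± 0.13 (0.0315) and KLHL42 by -0.41 ± 0.12 (0.0218). KBTBD2 read 7.66, 7.58 and 7.47 in control shRNA embryoid bodies, against 7.5, 7.48 and 7.53 in pluripotent cells, and without virus it read 7.79, 7.82 and 7.76, against 7.54, 7.17 and 7.18. KLHL42 read 6.98, 6.93 and 7.09 in control shRNA embryoid bodies, against 7.06, 7.22 and 7.08 in pluripotent cells, and 7.19, 7.07 and 7.05 without virus, against 6.75, 6.90 and 6.79. KLHL24 was the only one that went the other way, by 0.58 ± 0.14 (0.00973), since its rise was 1.75 with the control shRNA and 1.17 without virus. KLHL8 alone remained past the threshold with all 18 arrays (adjusted p 0.0223), against 5.24% of all genes. The added arrays belong to none of the groups in this test, so the differences were unchanged and the shared estimate of spread differed. The KBTBD2 call was lost without any 1 of 9 of the 12 arrays compared, the exceptions being replicate 1 of both states with the control shRNA and of the untransduced pluripotent cells (adjusted p 0.0526 to 0.0869). The KLHL42 call was lost without replicate 2 of either state with the control shRNA or replicate 1 of the untransduced embryoid bodies (0.0578 to 0.0648).

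**Figure D4:**
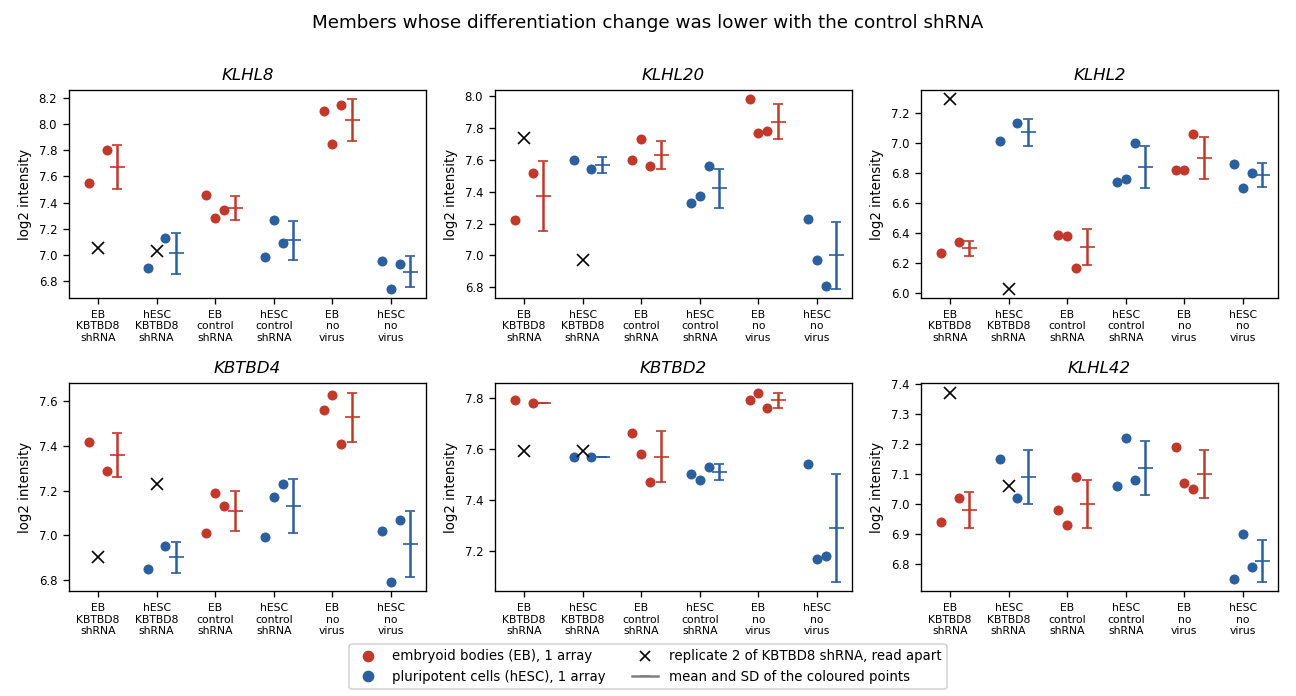
Log2 intensity, by group and array, of the 6 members whose differentiation change was lower with the control shRNA than without virus. KLHL24, which went the other way, is not drawn. KLHL8 lies between 7.28 and 7.46 in control shRNA embryoid bodies and between 7.85 and 8.15 without virus, while in pluripotent cells it lies between 6.74 and 7.27. Crosses are replicate 2 of the KBTBD8 shRNA groups, which were not averaged.

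The KBTBD8 shRNA was compared with the control shRNA in each state. In embryoid bodies 1 of the 32 members passed, 3.1% against 5.81% of all genes (2.84% higher and 2.97% lower). In pluripotent cells 2 passed, 6.2% against 14.1% (8.46% higher and 5.68% lower). With limma at an unadjusted p under 0.05 there were 4 members in embryoid bodies (2 higher and 2 lower) and 9 in pluripotent cells (3 higher and 6 lower). The median difference was 0.02 in embryoid bodies, against 0.00 over all genes, and -0.10 in pluripotent cells, against -0.01. No member passed in either state with all 18 arrays, against 2.48% of all genes in embryoid bodies and 5.13% in pluripotent cells, while 1 and 5 members had an unadjusted p under 0.05.

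The member past the threshold in embryoid bodies was KLHL4, which read 4.24 and 3.51 with the KBTBD8 shRNA, against 5.03, 4.94 and 4.81 with the control shRNA, with an adjusted p of 0.00523. Both groups lay below the 40th percentile on every array, and the gene was tested through its pluripotent arrays, so no size is given and the call sets 2 dim readings against each other. It was lost without replicate 3 of the KBTBD8 shRNA (adjusted p 0.136) and with all 18 arrays (adjusted p 0.979), where the replicate labelled embryoid body read 6.81. The readings without virus were 4.05, 3.55 and 3.67, also below that percentile. The neural crest markers averaged 7.28 to 7.47 in embryoid bodies with the KBTBD8 shRNA, against 9.03 to 9.14 with the control shRNA, and the endoderm markers 5.42 to 5.64, against 6.79 to 6.87. Of the endoderm markers, AFP, TTR, APOA2 and APOA1 had group means of 4.54 to 5.98, against 7.13 to 8.2. SOX17, FOXA2 and GATA4 had group means of 5.65 to 5.9, against 5.63 to 5.85. The part of these cell types in the KLHL4 call was not tested.

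In pluripotent cells KLHL13 read 5.70 and 6.26 with the KBTBD8 shRNA, against 6.5, 6.52 and 6.43 with the control shRNA, a difference of -0.51 ± 0.15 (adjusted p 0.0314). Without replicate 1 of the KBTBD8 shRNA, the lower reading, the difference was -0.23 and did not pass (adjusted p 0.399), and the call was also lost without any 1 of the 3 control shRNA arrays (adjusted p from 0.0532). KLHL21 read 5.64 and 5.52 with the KBTBD8 shRNA, against 5.99, 5.94 and 5.84 with the control shRNA, a difference of -0.34 ± 0.09 (adjusted p 0.0178). Its call was lost without replicate 1 of the control shRNA and without replicate 3 of the KBTBD8 shRNA (adjusted p 0.0575 to 0.179). The groups did not overlap for either gene. The differences with all 18 arrays were -0.34 for KLHL13 (adjusted p 0.372) and -0.27 for KLHL21 (0.114), in a comparison whose 6 arrays then included 1 that correlated best with the other state. The endoderm markers averaged 5.53 to 5.56 in these pluripotent cells with the KBTBD8 shRNA, against 6.10 to 6.26 with the control shRNA, and their part in the calls was not tested. AFP, TTR, APOA2 and APOA1 had group means of 5.11 to 5.96, against 5.87 to 6.93. For SOX17, FOXA2 and GATA4 they were 5.33 to 5.74, against 5.63 to 5.87.

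Whether the KBTBD8 shRNA difference depended on the state was past the threshold for 2 members, 6.2% of the 32 against 9.88% of all genes (3.74% higher and 6.14% lower). KLHL13 differed by 0.71 ± 0.21 (adjusted p 0.0421), with readings of 6.59 and 6.73 in embryoid bodies with the KBTBD8 shRNA, against 6.43, 6.55 and 6.40 with the control shRNA. KLHL5 differed by -0.56 ± 0.17 (adjusted p 0.0494). It read 7.0 and 7.16 in embryoid bodies with the KBTBD8 shRNA, against 7.56, 7.17 and 7.35 with the control shRNA, and in pluripotent cells 7.24 and 7.46, against 6.97, 7.22 and 7.01. Neither KLHL5 difference passed in its own state (-0.28 with adjusted p 0.254 in embryoid bodies and 0.28 with adjusted p 0.14 in pluripotent cells). The KLHL13 call was lost without any 1 of 10 of the 16 arrays, among them all 6 with the control shRNA (adjusted p 0.051 to 0.207), and the KLHL5 call without any 1 of 13, among them all 4 with the KBTBD8 shRNA (0.0506 to 0.216). Neither passed with all 18 arrays (adjusted p 0.57 and 0.509).

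For the members that did not pass, the data set a limit on the size of a difference. The 95% interval of KLHL24, for example, ran from -0.40 to 0.07 in embryoid bodies and from -0.37 to 0.10 in pluripotent cells, and that of KLHL28 from -0.30 to 0.15 and from -0.07 to 0.38. For KLHL15 it ran from -0.10 to 0.40 in embryoid bodies and from -0.20 to 0.30 in pluripotent cells. Over all 32 members the half-width ran from 0.18 to 0.45 log2. Of the machinery, RBX1 was lower by 0.40 in pluripotent cells with the KBTBD8 shRNA (adjusted p 0.0178) and no other of the 21 genes passed in either state, and CUL3 differed by -0.04 ± 0.08 in embryoid bodies and by 0.16 ± 0.08 in pluripotent cells (adjusted p 0.92 and 0.221). Of the cullins beside CUL3, CUL5 was higher by 0.39 in pluripotent cells, and none passed in embryoid bodies. Among the other BTB adaptors BTBD3 was lower in both states, by 0.79 in embryoid bodies and by 0.60 in pluripotent cells, RHOBTB3 and KCTD6 were lower by 0.74 and 0.50 in embryoid bodies, and ENC1 was lower by 0.71 in pluripotent cells. Of the 28 substrates and partners GRIK2 was higher by 1.05 and PIK3R1 lower by 0.53 in embryoid bodies, and KATNA1, PIK3R1 and EIF4EBP1 were higher by 0.59, 0.33 and 0.32 in pluripotent cells. On all 18 arrays 3 of the 5 calls of these lists in embryoid bodies held, those of BTBD3, KCTD6 and PIK3R1, and none of the 7 in pluripotent cells. The array added to the embryoid bodies correlated best with pluripotent cells. BTBD3 and KCTD6 were lower in pluripotent cells with the control shRNA, by 1.06 and 0.82. Such an array lowers both genes in the way of the call, and their differences became -1.04 and -0.60. Their holding is therefore no check of these calls.

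**Figure D5:**
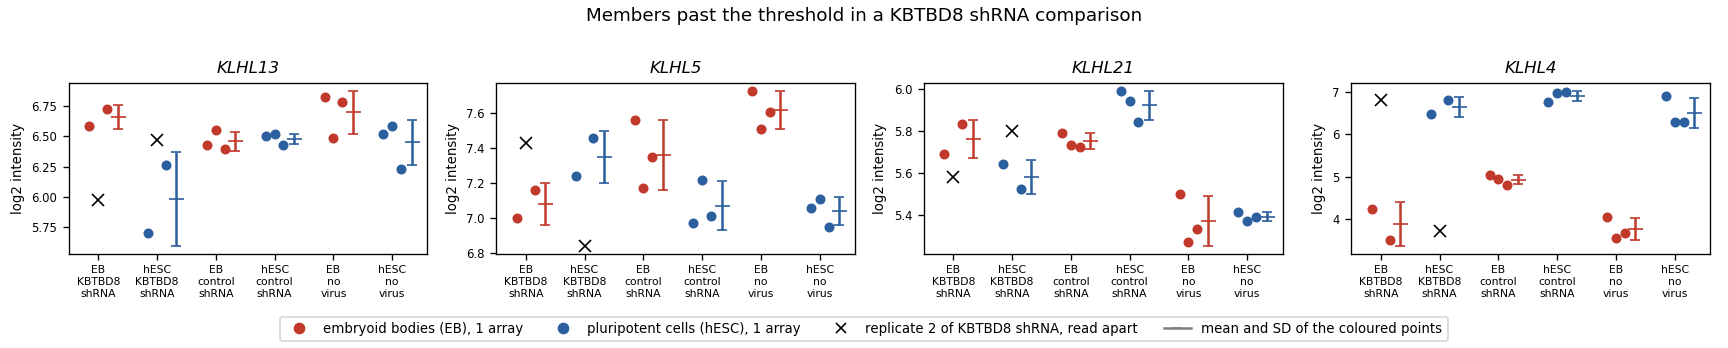
Log2 intensity, by group and array, of the 4 members past the threshold in a comparison of the KBTBD8 shRNA with the control shRNA or in its dependence on the state, with the mean and SD of the coloured points. The 8 coloured embryoid body points of KLHL4 lie below the 40th percentile of their arrays, and the crosses of replicate 2 lie near the opposite state for KLHL4.

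Of the 32 tested members 3, KLHL35, KLHL40 and KBTBD11, or 9.4%, passed in none of the 9 tests made, against 18% of all genes. KLHL35 read between 5.83 and 6.45 on the 16 arrays, KLHL40 between 5.02 and 5.59 and KBTBD11 between 5.45 and 6.10.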

How the data were processed

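The deposited table holds log2 probe set intensities that the authors produced by GCRMA (per the submitters' processing notes, version not named). The log base was taken from the method and the range of the values (1.54 to 13.9), and column medians ran from 5.85 to 6.12, so joint normalization of all 18 arrays is not shown. Of 33297 probe sets, 19460 carried 1 symbol, 1754 several and 12083 none. Symbols were updated through RefSeq for GRCh38.p14, where 31 were not found, and the probe set with the highest mean stood for a gene.

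A group-means model of 14142 genes, made in R 4.3.3 by limma 3.58.1, was fitted on 16 arrays (10 residual degrees of freedom), with Benjamini-Hochberg adjustment over all genes and a threshold of 0.05. Gene selection used the 40th percentile on at least 3 arrays. Where a group lay below it on every array, a fold is a bound against that percentile (log2 5.26 to 5.54), and none is given where both groups did. The fit was tested on simulated data. Replicate 2 of both KBTBD8 shRNA groups was left out of the main fit. The study's design text calls the samples of a group independent, and the labels do not say whether they were separate cultures, so p-values measure the spread between arrays.

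The members, roles, gene lists and alternatives were chosen with earlier results of these data known. Members past the threshold were named in each comparison, at most 10 in each direction beside those named under another rule (KBTBD7 was added to complete its group after its values were seen), and values on every array were given for members past it in all 3 differentiation comparisons, in a test of dependence on state, or with the largest change. Of the 4 lists of other genes, up to 3 in each direction were named for untransduced differentiation and for the KBTBD8 shRNA. Replicate numbers were not used to pair the arrays. The deviations of same-numbered arrays correlated between -0.375 and 0.384, which does not settle whether those arrays shared a batch. For the KBTBD8 shRNA in pluripotent cells the correlations were 0.384 and 0.363, and for differentiation with it 0.316. In embryoid bodies with the KBTBD8 shRNA, against the control shRNA, they were -0.132 and 0.01. Alternatives were all 18 arrays, no filter or a 50th percentile filter, quantile normalization, the mean of probe sets, an intensity trend with robust variances, a replicate block, the compared groups alone, and each array left out. Python 3.11.15, pandas 2.3.3 and matplotlib 3.10.9 were also used.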

Additional observations from a re-analysis of the deposited data

Results flagged for a closer look

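In 9 cases a member's difference was itself different between the states, by a limma test of the interaction with an adjusted p under 0.05. For the control shRNA against no virus, the embryoid body difference minus the pluripotent difference was -0.91 for KLHL8, -0.64 for KLHL2, -0.63 for KLHL20, -0.59 for KBTBD4, -0.43 for KBTBD2, -0.41 for KLHL42 and 0.58 for KLHL24. KLHL8, for example, differed by -0.67 in embryoid bodies and by 0.24 in pluripotent cells, and KLHL20 by -0.21 and 0.42. KLHL24 differed by 0.28 in embryoid bodies and by -0.30 in pluripotent cells. For the KBTBD8 shRNA against the control shRNA the interaction was 0.71 for KLHL13 and -0.56 for KLHL5. KLHL13 differed by 0.20 in embryoid bodies and by -0.51 in pluripotent cells, and KLHL5 by -0.28 and 0.28. With all 18 arrays and the labels as given, KLHL8 was the only 1 of the 9 past the threshold (adjusted p 0.0223). The control shRNA interactions kept their size in that fit, where the shared estimate of spread changed. The cell type markers given above differed between these groups, and their part in the interactions was not tested.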

How the results depend on the processing

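With all 18 arrays and the labels as given, the members past the threshold numbered 0 for differentiation with the KBTBD8 shRNA (12 on 16 arrays), 2 for the control shRNA in pluripotent cells (9), 7 for it in embryoid bodies (12), 0 for the KBTBD8 shRNA in either state (1 in embryoid bodies and 2 in pluripotent cells), 0 for its dependence on state (2) and 1 for the dependence of the control shRNA difference on state (7). For the control shRNA against no virus the differences were unchanged with all 18 arrays, and the shared estimate of spread changed. At an unadjusted p under 0.05 the counts of 0 became 3 for differentiation, 1 in embryoid bodies, 5 in pluripotent cells and 2 for the dependence on state. Counts over all genes then fell too, to 0 (5443 on 16 arrays), 1713 (4112), 3848 (6346), 352 and 729 (821 in embryoid bodies and 1999 in pluripotent cells), 521 (1397) and 744 (2391), in the order of the comparisons just given, and the control shRNA count in pluripotent cells was 2644 when only the compared groups were fitted. No filter gave 2 members for the KBTBD8 shRNA in embryoid bodies and 0 for its dependence on state (11 at an unadjusted p under 0.05). For the KBTBD8 shRNA in pluripotent cells, 1 member passed with the 50th percentile filter, with the intensity trend and with the replicate block, and 0 with only the compared groups (4 at an unadjusted p under 0.05), which left 3 members for the control shRNA in pluripotent cells. The replicate block gave 0 members for the dependence of the KBTBD8 shRNA difference on state (9 at an unadjusted p under 0.05). Quantile normalization gave 5 higher and 2 lower members for the control shRNA in pluripotent cells, 5 and 8 in embryoid bodies, and 3 and 0 for the dependence of the KBTBD8 shRNA difference on state. Leaving out each array in turn gave 9 to 12 members for differentiation with the KBTBD8 shRNA, 8 to 14 with the control shRNA and 17 to 21 without virus, 10 to 15 for the control shRNA in embryoid bodies and 4 to 10 in pluripotent cells, 0 to 1 and 0 to 3 for the KBTBD8 shRNA in embryoid bodies and pluripotent cells, and 0 to 2 and 5 to 10 for the dependence on state of the KBTBD8 shRNA and the control shRNA difference. Of 78 single calls, 37 held with all 18 arrays, 64 with only the compared groups, 70 without a filter, 72 after quantile normalization, 74 with the block, 76 with the trend and 78 with the mean of probe sets, and none changed sign. With 1 array left out, 1135 of 1248 calls held. The causes were not tested, and signal near background limits KLHL4, KLHL21, KLHL33, KLHL34, KLHL40 and KBTBD13.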
